A study of Homo sapiens with 4 samples.

Results

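The olfactory receptor genes of chromosomes 11 and 14 were examined as controls expected to be inactive, since their best known role is in the sensory neurons of the nose. They were chosen by symbol (OR, a number, 1 or more letters, a number) among the protein-coding genes of the GENCODE annotation of hg19, which gave 171 genes on chromosome 11 and 27 on chromosome 14, or 198 of 20175 protein-coding genes in all; 201 further genes of the family lie on other chromosomes. The measurement was ChIP-seq of H3K27ac, acetylation of lysine 27 of histone H3, in cultures of 4 cancer cell lines. COLO-205 is a colon cancer line, DU-145 a prostate cancer line, and OVCAR-3 and SKOV-3 are ovarian cancer lines. Each line gave 1 library, so lines were compared without a test, and the intervals below cover counting error only. The study used these profiles to ask which noncoding mutations of the lines lie in active regulatory DNA.

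Olfactory receptors are G protein-coupled receptors that bind odorants at the surface of sensory neurons in the nose. Each mature neuron expresses a single receptor gene, usually from 1 allele, and the remaining genes of the family are kept in compact heterochromatin. The genes are small, have their coding sequence in 1 exon and lie side by side in long arrays that arose by duplication. H3K27ac marks nucleosomes at active promoters and enhancers, so an inactive gene usually lacks it at its start. The mark reports on chromatin: transcripts of these genes were not measured here.

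The peak lists held 75468 peaks in DU-145, 76093 in OVCAR-3, 85576 in COLO-205 and 14001 in SKOV-3, and the median number of tags piled up at a summit ranged from 24 to 30. SKOV-3 thus stood apart by its short list, and DU-145 by chromosome 14, where it had 122 peaks per Mb over the whole chromosome against 23.5 per Mb on chromosome 11. At the peaks of DU-145 on chromosome 14 the median pileup was 25 tags over a local background of 3.61, against 30 tags over 6.3 on chromosome 11. The part of background and pileup in this excess was not tested. At the starts of 6 colon markers, peaks lay at 3 in COLO-205, 0 in SKOV-3 and 1 each in DU-145 and OVCAR-3, and at those of 6 ovarian carcinoma markers at 5 in OVCAR-3 and at 3 in each of the other lines, SKOV-3 included. Of 4 epithelial markers, all had a peak in COLO-205, DU-145 and OVCAR-3, while in SKOV-3 KRT8 and KRT18 had one and EPCAM and CDH1 did not. With shares of 31.5% to 60.4% over all protein-coding genes, these short lists tell little of the identity of a line, and the prostate list is not reported here.

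The annotated starts of the receptor genes were poor in CpG, the dinucleotide that is dense at most human promoters. The 250 bases before the canonical start are shown for OR4K1 and OR4M1, receptor genes of the chromosome 14 array, and for TEP1. TEP1 encodes a telomerase-associated protein and lies 121318 bp beyond that array, behind other genes. Its start had a peak in all 4 lines, and it was chosen after the values were seen. Sequences are from GRCh37, 5′ to 3′ on the strand of the gene, with each CpG in capitals.
OR4K1 (chr14:20398826-20399075, plus strand): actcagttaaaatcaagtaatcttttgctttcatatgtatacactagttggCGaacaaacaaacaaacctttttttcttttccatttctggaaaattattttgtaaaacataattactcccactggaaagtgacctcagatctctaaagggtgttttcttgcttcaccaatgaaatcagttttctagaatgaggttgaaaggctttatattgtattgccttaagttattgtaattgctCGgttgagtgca
OR4M1 (chr14:20241413-20241662, plus strand): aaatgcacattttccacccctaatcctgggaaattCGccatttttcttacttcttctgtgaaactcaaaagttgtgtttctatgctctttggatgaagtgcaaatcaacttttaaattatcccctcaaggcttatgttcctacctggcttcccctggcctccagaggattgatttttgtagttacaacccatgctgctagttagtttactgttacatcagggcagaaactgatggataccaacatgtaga
TEP1 (chr14:20881661-20881910, minus strand): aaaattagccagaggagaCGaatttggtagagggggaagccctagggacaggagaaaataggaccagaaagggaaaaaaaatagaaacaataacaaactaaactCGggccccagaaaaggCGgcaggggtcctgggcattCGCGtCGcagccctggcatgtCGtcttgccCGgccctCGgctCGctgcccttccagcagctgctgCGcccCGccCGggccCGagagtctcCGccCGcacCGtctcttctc

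The stretch before OR4K1 held 2 CpG and that before OR4M1 held 1, while the stretch before TEP1 held 17. The GC content was 32.8% and 40.4% for these receptors and 59.2% for TEP1. Over 300 bases around the canonical start, from 250 before to 50 after it, the 198 receptor genes had a median of 1 CpG and a median GC content of 37%, with a range of 24.3% to 60.3%. The 19741 protein-coding genes outside the family had medians of 23 CpG and 63.7%. No CpG at all was found at 50 receptor genes (25.3%) and at 278 of the other genes (1.41%), and 191 receptor genes (96.5%) had 5 or fewer. The 2 chromosomes were alike in this respect, with 165 of 171 receptor starts at 5 or fewer CpG on chromosome 11 and 26 of 27 on chromosome 14. At 89 of the 198 receptor genes the canonical start equals the start codon. The 300 bases there reach into coding sequence and need not be those of the promoter, which limits these counts and the motif counts below.

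**Figure D1:**
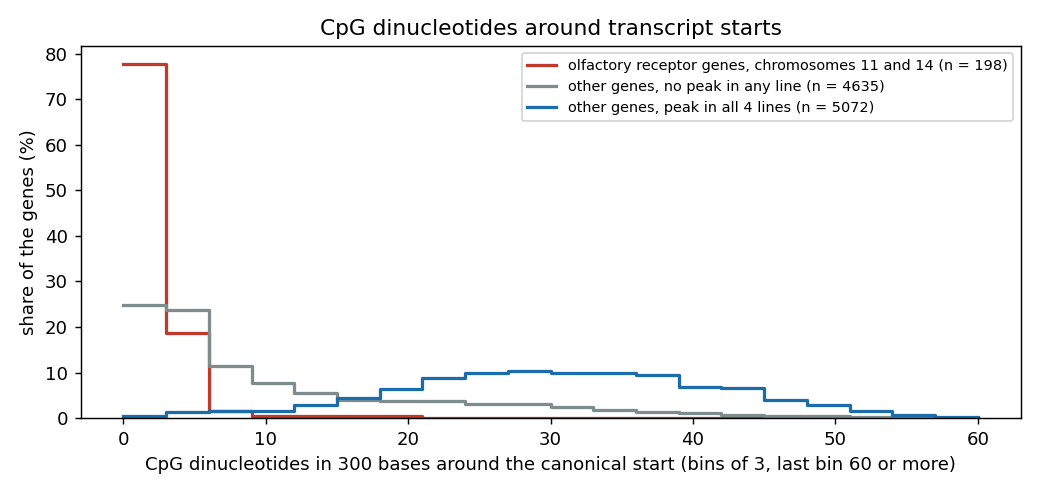
CpG dinucleotides in the 300 bases around the canonical start, as the share of genes (y axis, %) in bins of 3 CpG (x axis). The red line is the 198 receptor genes, which peak in the lowest bin, the grey line the 4635 other genes without a peak in any line and the blue line the 5072 other genes with a peak in all 4 lines, whose median is 30 CpG.

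Short motifs were counted in the same 300 bases, on both strands, without asking whether they are bound; each was counted by itself, so bases of overlapping matches count for each motif. TATAAA, the core of the TATA box, occurred at 69 receptor genes (34.8%) and at 9.79% of all 20140 protein-coding starts with sequence. TAATTA, the core recognised by LIM and other homeodomain factors such as LHX2, occurred at 44 receptor genes (22.2%) and at 3.07% of all. The palindrome TCCC and GGGA with 2 free bases between, that of EBF factors, which with LHX2 drive receptor choice in olfactory neurons, occurred at 2 receptor genes (1.01%) and at 1.34% of all. CCAAT, the box bound by NF-Y, occurred at 89 receptor genes (44.9%) and at 36% of all. GGGCGG, the GC box bound by SP1, occurred at 4 receptor genes (2.02%) and at 61% of all. The 4635 other genes without a peak in any line lay nearer to the receptor genes in these respects, with TATAAA at 20.0%, TAATTA at 5.59%, CCAAT at 38.1% and GGGCGG at 31.4%, and their median GC content was 53%. TATAAA and TAATTA were thus more frequent and the GC box rarer at receptor starts than in either group, and the GC content of receptor starts was itself the lowest of the 3.

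Very few receptor genes carried H3K27ac at an annotated start. A gene was counted when at least 1 base of a peak lay within 1 kb of any of its annotated transcript starts. At 89 of the 198 receptor genes the canonical start equals the start codon, so a start farther upstream may be missing from the annotation. Peaks at such a start could be missed by the count. On chromosome 11 this held for 1 of 171 genes in DU-145 (0.585%, exact 95% interval 0.0148% to 3.22%), 1 in OVCAR-3 (0.585%), 1 in COLO-205 (0.585%) and 2 in SKOV-3 (1.17%, 0.142% to 4.16%). Over all protein-coding genes the share was 59.8% in DU-145, 60.4% in OVCAR-3, 51.1% in COLO-205 and 31.5% in SKOV-3. For the 1146 chromosome 11 genes outside the family it was 60.5%, 62.2%, 51.9% and 35.3% in the same order. The intervals of the receptors and of their neighbours did not overlap in any line.

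On chromosome 14 the contrast was widest in DU-145. None of the 27 receptor genes had a peak at a start in COLO-205, DU-145 or SKOV-3, and 0 of 27 genes allows a share of up to 11.1% if counted as 3 genes, or 12.8% by the exact 95% interval. In OVCAR-3 1 of 27 did (3.7%, exact 95% interval 0.0937% to 19.0%). The 589 other genes of chromosome 14 had a peak at 83.0% of starts in DU-145, 76.6% in OVCAR-3, 64.2% in COLO-205 and 49.1% in SKOV-3. Other genes of chromosome 14 thus had higher shares than those of chromosome 11 in every line, by 83.0% against 60.5% in DU-145, 76.6% against 62.2% in OVCAR-3, 64.2% against 51.9% in COLO-205 and 49.1% against 35.3% in SKOV-3, so that a higher share on chromosome 14 was not particular to DU-145. At receptor genes of DU-145 the shares were 0% and 0.585%, and with 27 genes on chromosome 14 no difference between the chromosomes was detectable in any line.

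**Figure D2:**
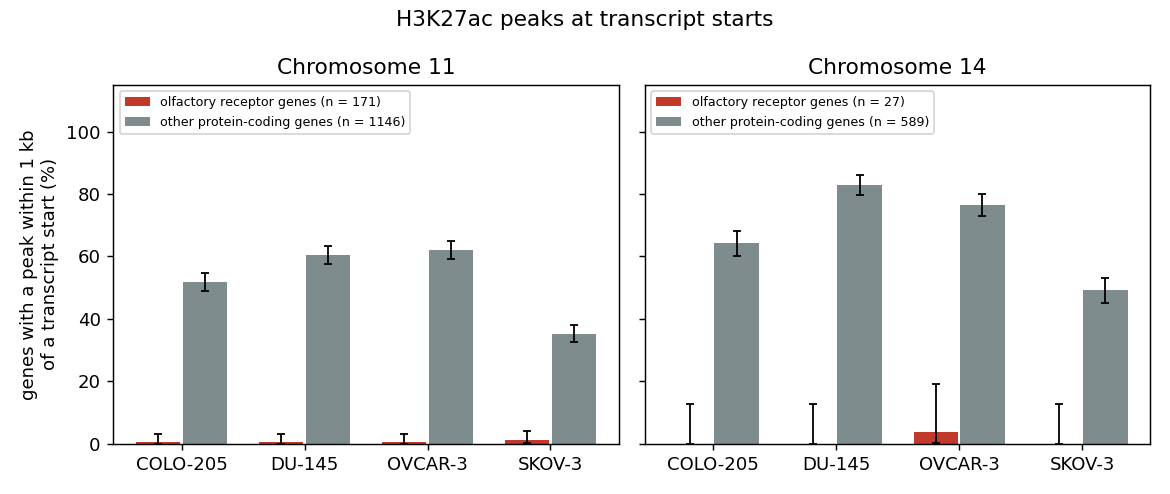
Share of genes with an H3K27ac peak within 1 kb of a transcript start (y axis, %) in each line (x axis), for receptor genes (red) and other protein-coding genes (grey) of chromosome 11 (left) and chromosome 14 (right). Error bars are exact 95% binomial intervals for counting error, which reach 12.8% for 0 of 27 receptor genes while other genes lie between 35.3% and 83.0%.

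Over the 4 lines, 5 of the 198 receptor genes had a peak at a start and 193 had none, and 6 of 792 pairs of gene and line were positive. The 8 peaks had pileups between 14 and 22 tags and −log10 q between 4.85 and 8.52, each below the median over all peaks of its line and chromosome, which lay between 23 and 35 tags and between 7.51 and 16.0. Their fold enrichments over local background, from 4.29 to 5.79, were above that median for 5 of the 8 and below it for the peak of OVCAR-3 at OR56A3 and 2 of SKOV-3 there. They are described here one by one because they are all the receptor genes with the mark at a start.

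OR4N2 was the only positive gene of chromosome 14, in OVCAR-3 alone. Its peak, chr14:20271045-20271294, ended 635 bp before the canonical start and lay in an intron of the longer annotated transcripts, with 18 tags over a background of 2.52, a 5.4-fold enrichment and a −log10 q of 8.26. OR4D9 of chromosome 11 was positive in DU-145, with an intergenic peak at chr11:59278014-59278283, 558 bp before its first annotated start. That peak had 22 tags over 3.7, a 4.9-fold enrichment and a −log10 q of 8.52, the highest of the set.

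OR56A4 was positive in COLO-205. Its peak, chr11:6025367-6025580, lay in an intron, 943 bp before one of the annotated starts and 2596 bp from the canonical start, with 16 tags over 2.36, a 5.06-fold enrichment and a −log10 q of 6.74. OR52M1 was positive in SKOV-3, with a peak inside its own coding exon at chr11:4566740-4566931, 319 bp past the start. It had 14 tags over 1.59, a 5.79-fold enrichment and a −log10 q of 6.68.

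OR56A3 was the only receptor gene positive in more than 1 line. In OVCAR-3 it had 1 peak, chr11:5959059-5959330, 651 bp before its first annotated start, with 19 tags, a 4.33-fold enrichment and a −log10 q of 6.57. In SKOV-3 it had 3 peaks, at 625, 199 and 22 bp from that start, with 18, 19 and 14 tags and −log10 q of 7.22, 5.67 and 4.85. The OVCAR-3 peak and the farthest SKOV-3 peak overlapped. A start of a gene outside the family lies 132 bp from a start of OR56A3, and these peaks lie within the annotated TRIM5 gene, which encodes a restriction factor against retroviruses, except the nearest, which lies in an OR56A3 exon. To which gene such peaks belong cannot be told apart. The canonical start of OR56A3 is at least 3287 bp from all of them.

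The reference sequence under the summit is shown for the OVCAR-3 peak at OR56A3, the receptor gene positive in more than 1 line. It is the 151 bases around the summit, read on the plus strand of GRCh37, with each CpG in capitals.
OR56A3 peak in OVCAR-3 (chr11:5959154-5959304): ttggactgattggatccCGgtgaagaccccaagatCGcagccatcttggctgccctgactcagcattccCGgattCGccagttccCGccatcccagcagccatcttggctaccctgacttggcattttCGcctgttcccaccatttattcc

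How often the letters of a peak recur in the genome bears on how well short reads can be placed there. Repetition was measured as the share of 31-base words of a peak that occur elsewhere in GRCh37, on either strand. It was 63.6% for the OR4N2 peak, whose words had a median of 12 copies, and 62.6% for the OR56A4 peak, with a median of 25.5 copies. It was 33.3% for the OR4D9 peak, 11.8% for the OVCAR-3 peak at OR56A3 and 9.9% for the OR52M1 peak, where the median word was unique. Its part in the peaks was not tested.

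Receptor genes were also set beside other genes with few CpG. Among chromosome 11 genes with 5 or fewer CpG, a limit set after the data were seen, peaks lay at 1 of 165 receptor genes and 30 of 235 other genes in DU-145 (0.606% and 12.8%), at 1 and 43 in OVCAR-3 (0.606% and 18.3%), at 1 and 33 in COLO-205 (0.606% and 14%) and at 2 and 14 in SKOV-3 (1.21% and 5.96%). The exact 95% intervals overlapped in SKOV-3, where they were 0.147% to 4.31% and 3.29% to 9.79%, and lay apart in the other lines. On chromosome 14 the counts in DU-145 were 0 of 26 receptor genes and 27 of 72 other genes, or 37.5% with an exact 95% interval of 26.4% to 49.7%. In COLO-205 they were 0 of 26 and 20 of 72 (27.8%), in OVCAR-3 1 of 26 and 20 of 72, and in SKOV-3 0 of 26 and 7 of 72 (9.72%). The interval of the receptor genes, which reached 13.2% for 0 of 26, lay apart from that of the other low-CpG genes of chromosome 14 in COLO-205 and DU-145 and overlapped it in OVCAR-3 and SKOV-3. CpG was counted at the canonical start only, while a peak at any annotated start made a gene positive. A gene with further starts could thus be positive through one richer in CpG. Of the 198 receptor genes 142 have 1 annotated transcript, so the 2 groups may differ in this respect. No test was run on these counts.

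Most receptor genes lay far from any peak. On chromosome 11 the median distance from a start to the nearest peak was 249 kb in DU-145, 213 kb in OVCAR-3, 60.6 kb in COLO-205 and 349 kb in SKOV-3, and the largest was 3.38 Mb, in DU-145. On chromosome 14 the medians were 239 kb in DU-145, 35.5 kb in OVCAR-3, 41 kb in COLO-205 and 353 kb in SKOV-3. For other genes of chromosome 14 the median was 0 bp in DU-145 and OVCAR-3, 80 bp in COLO-205 and 1387 bp in SKOV-3. DU-145 had the densest chromosome 14 of the 4 lines, yet its receptor genes there were about as far from a peak as those of chromosome 11, while those of OVCAR-3 were closer on chromosome 14. Within 5 kb of a start lay a peak for 2 of the 27 genes in DU-145, 6 in OVCAR-3, 4 in COLO-205 and 0 in SKOV-3.

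**Figure D3:**
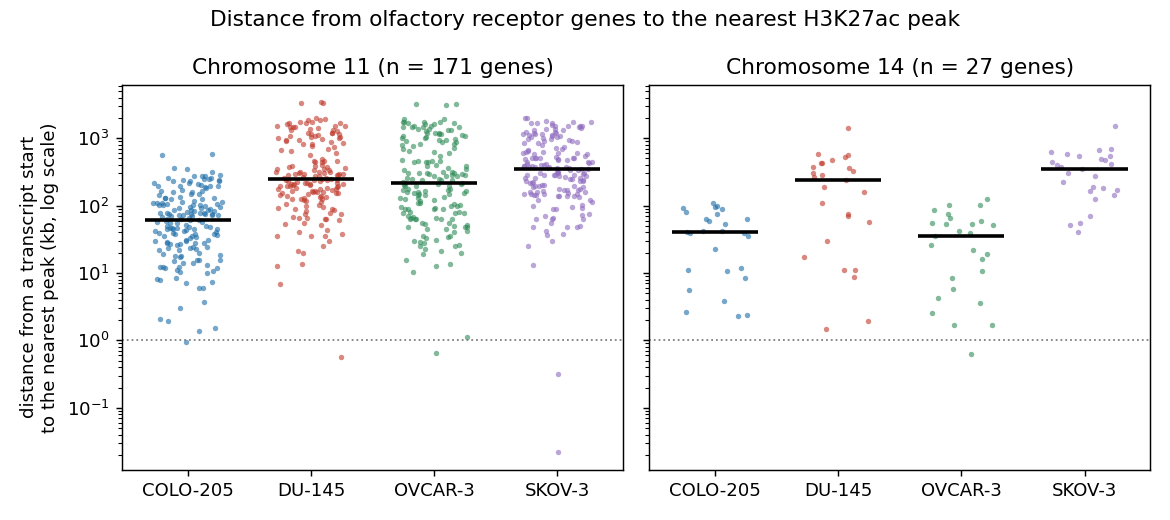
Distance from the closest transcript start of each receptor gene to the nearest peak (y axis, kb, log scale) in each line (x axis), for chromosome 11 (left, 171 genes) and chromosome 14 (right, 27 genes). Points are genes, black bars are medians and the dotted line is the 1 kb window; on chromosome 14 the DU-145 genes have a median of 239 kb and the OVCAR-3 genes 35.5 kb.

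The clusters give a different picture from the starts, and they also hold other genes. Members at most 1 Mb apart were joined, and groups of at least 5 were kept, which gave 5 clusters on chromosome 11 and 1 on chromosome 14 with 192 of the 198 genes. The chromosome 11 clusters span 8.01 Mb, and the chromosome 14 cluster runs from OR11H12 to OR6J1 over 3.74 Mb and holds 45 other protein-coding genes. Chromosome 11 clusters had 56 peaks in DU-145, 67 in OVCAR-3, 88 in COLO-205 and 19 in SKOV-3, or 6.99, 8.36, 11 and 2.37 per Mb. The chromosome 14 cluster had 226, 147, 89 and 14 peaks in the same order, or 60.5, 39.3, 23.8 and 3.75 per Mb. Chromosome 14 was denser in all 4 lines, by 8.66 times in DU-145, 4.71 times in OVCAR-3, 2.17 times in COLO-205 and 1.58 times in SKOV-3. Outside the clusters the ratio of chromosome 14 to chromosome 11 was 5.08 in DU-145, 0.968 in OVCAR-3, 0.918 in COLO-205 and 1.4 in SKOV-3. More than 5 kb from other gene starts SKOV-3 had 0 peaks in the chromosome 14 cluster, and with equal numbers of peaks per library the cluster ratio of OVCAR-3 was 1.81 and that of DU-145 4.85. The ratio also depended on how a cluster was defined. With neighbours at most 500 kb apart it was 29.8 in DU-145 and 17.0 in OVCAR-3, and more than 5 kb from other gene starts it was 11 in OVCAR-3. In stretches of receptor genes alone, described below as runs, it was 66.8 in OVCAR-3 but 0 in DU-145, where the floor of 3 peaks allows up to 26.1.

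The strongest peaks inside the clusters lay away from receptor starts, most of them at or near other protein-coding genes. The highest −log10 q in the chromosome 11 clusters of DU-145, OVCAR-3 and SKOV-3 (60.8, 182 and 36.1) and of COLO-205 (36.9) all lay at ZFP91, which encodes a zinc finger ubiquitin ligase, 70304 to 71063 bp from the start of OR5B21. In the chromosome 14 cluster the strongest DU-145 peak had a −log10 q of 75.9 and lay 240 bp from a start of ANG, the gene of angiogenin, 40046 bp from OR6S1. The strongest OVCAR-3 and SKOV-3 peaks there had 140 and 67.8 and lay at or within 134 bp of ZNF219, a zinc finger gene. In COLO-205 it had 27.2 and lay in a noncoding RNA exon, 88323 bp from OR6J1. Among the 3 strongest peaks of each line, the others lay at or near ZFP91, LPXN, TRIM3, PATL1 and CAVIN3 and in an RNA gene near OR4D9 on chromosome 11, and at or near ANG, PIP4P1, TEP1 and ZNF219 on chromosome 14. A single exception on chromosome 14, in COLO-205, lay over pseudogenes 44021 bp from OR11H2, and the receptor start nearest to any of these peaks was 40046 bp away.

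Stretches of at least 5 consecutive receptor genes with no other protein-coding gene between them were then taken by themselves, a choice made after the data were seen. There were 14 such runs on chromosome 11, with 124 genes over 4.63 Mb, and 1 on chromosome 14, with 19 genes from OR11H2 to OR11H4 over 0.531 Mb (chr14:20181095-20712508). The 14 runs of chromosome 11 held 23 peaks in COLO-205, in 9 of the runs, but SKOV-3 had only 2, OVCAR-3 3 and DU-145 1. In that order these are 4.97, 0.432, 0.648 and 0.216 peaks per Mb, against 16.6, 2.39, 28.7 and 13.9 per Mb in the rest of chromosome 11 more than 5 kb from starts of other genes. The run of OR5W2 to OR8U3, the longest by number of genes with 22, held 4 peaks in COLO-205 and 0 in the other lines. The median pileup of the 23 COLO-205 peaks was 19 tags, and 0 of them overlapped a peak of another line.

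The chromosome 14 run separated the lines. It held 0 peaks in DU-145, 23 in OVCAR-3, 7 in COLO-205 and 0 in SKOV-3. In the rest of chromosome 14 more than 5 kb from other gene starts, DU-145 had 106 peaks per Mb, at which density the run would hold 56.2. Counted against the floor of 3 peaks over the run (5.65 per Mb), the run of DU-145 was at least 18.7-fold lower. In SKOV-3 that density (4.52 per Mb) would give 2.4 peaks, below the floor, so an absence was not detectable there. COLO-205 had 13.2 peaks per Mb in the run and 16.3 in that rest of the chromosome, and OVCAR-3 had 43.3 and 29.8. At the deposited threshold OVCAR-3 thus had 1.45 times its own density elsewhere on the chromosome, and DU-145, with the most peaks on the chromosome, had none. This value of OVCAR-3 depended on the threshold. Of its 23 peaks in the run, 22 had a −log10 q of at least 5 but 3 one of at least 10, which is 5.65 per Mb against 12.1 in the rest, or 0.468 times. In COLO-205 the run held 2 peaks with a −log10 q of at least 10, where the density of the rest would give 1.72. With equal numbers of peaks per library the run held 0 peaks in every line, while the density of the rest would give 1.41 in OVCAR-3 and 11.3 in DU-145. These alternatives for the run were chosen after the data were seen. DU-145 and SKOV-3 had 0 peaks in the run under each of them. This was fixed in advance, since the alternatives only remove or join peaks, and it does not show that the absence is stable.

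**Figure D4:**
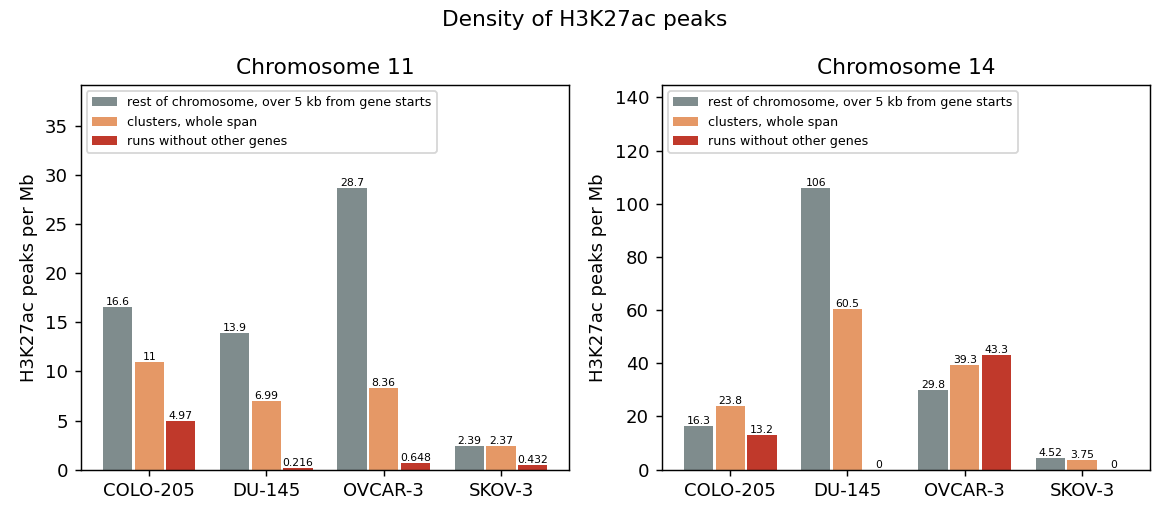
H3K27ac peaks per Mb (y axis) in each line (x axis) on chromosome 11 (left) and chromosome 14 (right; the y axes differ). Grey bars are the rest of the chromosome more than 5 kb from other gene starts, orange bars whole receptor clusters and red bars runs without other genes, where DU-145 has 0.216 per Mb on chromosome 11 and 0 on chromosome 14 while OVCAR-3 has 0.648 and 43.3.

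An empty stretch of this size was common in gene-free parts of DU-145. Of the 39 windows of 500 kb on chromosome 14 with no start of any protein-coding gene, 32 (82.1%) had no DU-145 peak, although the highest held 114. On chromosome 11 the count was 35 of 38 (92.1%). In OVCAR-3 9 of the 39 windows of chromosome 14 were empty, the median was 1 peak and the highest was 31. The 3 windows with receptor genes and at most 1 other gene start held 0, 0 and 15 peaks in DU-145 and 4, 22 and 25 in OVCAR-3. Thus the absence of DU-145 peaks was shared with most gene-free windows, and 2 of the 3 OVCAR-3 values lay in the upper part of the range of such windows.

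The peaks of the run lay at its proximal end. In OVCAR-3 22 of the 23 lay between 20217563 and 20402094, a stretch with 7 receptor genes, and the last at 500 kb from the start of the run. In COLO-205 6 of 7 lay between 20254035 and 20334968. Of the 7 COLO-205 peaks, 6 overlapped an OVCAR-3 peak, and 7 of the 23 OVCAR-3 peaks overlapped a COLO-205 peak. The OVCAR-3 peaks had a median of 18 tags (range 14 to 27), a median fold of 5.11 and a median −log10 q of 8.11, against 23 tags, 5.29 and 9.45 over all its chromosome 14 peaks. Their median background of 2.55 was close to 2.52, the lowest in the OVCAR-3 list. The COLO-205 peaks had a median of 20 tags, a median fold of 5.65 and a median −log10 q of 8.35, against 21 tags, 4.72 and 7.53 over all its chromosome 14 peaks, so that they were not weaker than those of the chromosome by fold or −log10 q. One OVCAR-3 peak of the run lay in an exon of a receptor gene and 1, that of OR4N2, within 1 kb of a start.

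The distance to a peak varied along the run, as 3 genes chosen after the values were seen show. The start of OR4K1 lay 1673 bp from a peak in OVCAR-3 and 64108 bp from one in COLO-205, while the nearest peak of DU-145 was 363808 bp and that of SKOV-3 477591 bp away. OR4N2 lay 635 bp from a peak in OVCAR-3 and 2360 bp in COLO-205, but 471967 bp in DU-145. OR4L1, in the distal part of the run, was 126110 bp from the nearest OVCAR-3 peak, 38942 bp from one in COLO-205 and 239371 bp from one in DU-145. At the distal end of the run the order of DU-145 and COLO-205 was the opposite: OR11H4 lay 56677 bp from a DU-145 peak and 76013 bp from one of COLO-205, OR11H7 70014 and 89350 bp, and OR11H6 75706 and 95042 bp. Over the 19 genes, the smallest distance was 56677 bp in DU-145 and 170460 bp in SKOV-3, but 635 bp in OVCAR-3 and 2334 bp in COLO-205.

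Repetition was also unevenly spread in the run. Of its 31-base words, 25.1% occurred elsewhere in the genome. By bins of 100 kb the share was 39.8%, 27.3%, 21.4%, 17.6% and 17.3%, and it was 32.1% in the short last bin. The peaks of OVCAR-3 numbered 12, 8, 2, 0 and 1 in these full bins and 0 in the last, and those of COLO-205 4, 2, 0, 1 and 0. Within the 23 OVCAR-3 peaks the median share of repeated words was 48.2%, against 4.28% over its 3332 peaks on chromosome 14 outside the cluster, and in the 7 COLO-205 peaks it was 43.6%, against 0% over 1932. In the runs of chromosome 11 the 23 COLO-205 peaks had a median of 30.0%, against 0% over 3066 peaks outside the clusters. The most repeated run of chromosome 11, OR4C13 to OR4C46 with 39.9%, held 5 peaks in COLO-205 and 0 in the other lines. In DU-145, with 0 peaks in the run, the 10568 peaks of chromosome 14 outside the cluster had a median share of repeated words of 26.7%, against 0% over 3027 on chromosome 11, and the part of repetition in its excess on chromosome 14 was not tested. For words with at least 4 copies, the bins of the run had 14.6%, 12.3%, 9.37%, 15.7%, 13.5% and 28.4%. The last bin, highest by this measure, had 0 peaks in OVCAR-3 and COLO-205. In these lines the peaks of the run held more repeated words, by median, than peaks of chromosome 14 outside the cluster. Their median background was also lower than over the chromosome. For the COLO-205 peaks the median background was 3.15 in the run of chromosome 14, with 3 of the 7 peaks at 2.36, the lowest in that list, against 3.73 over the chromosome, and 2.87 in the runs of chromosome 11 against 4.87. Pileups were lower than over the chromosome in OVCAR-3 and, on chromosome 11, in COLO-205 (19 against 23 tags). The part of repetition, background and pileup was not tested. The control used for peak calling, which bears on peaks in repeated sequence, is not given in the sources used here, although the methods mention libraries from input DNA. Its part in the peaks of the run was not tested either.

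DU-145 peaks began only beyond the distal end of the run. Before the run, on the side of the centromere, DU-145 and SKOV-3 had 0 peaks, COLO-205 20 and OVCAR-3 39. After it, the first DU-145 peak came at 55067 bp and the first OVCAR-3 peak at 55248 bp, both inside TTC5, which encodes a cofactor of p53, 6046 and 6077 bp from its start. In COLO-205 it came at 74403 bp and in SKOV-3 at 168850 bp. Within 500 kb after the run the lists held 42 peaks in DU-145, 55 in OVCAR-3, 18 in COLO-205 and 6 in SKOV-3.

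The first genes after the run carried the mark in DU-145 and OVCAR-3. The starts of TTC5, CCNB1IP1, a ubiquitin ligase of meiotic recombination, and PARP2, an ADP-ribose polymerase of DNA repair, were positive in these lines and not in COLO-205 or SKOV-3. The strongest peak at PARP2 had 72 tags and a −log10 q of 43.9 in DU-145, and 90 tags and 49.7 in OVCAR-3. TEP1 and OSGEP, which encodes a tRNA-modifying enzyme, were positive in all 4 lines, with −log10 q at TEP1 of 33.2 in DU-145, 89.8 in OVCAR-3, 17.0 in COLO-205 and 16.6 in SKOV-3. PARP2 begins 99266 bp after the end of the run, and TEP1 lies 121318 bp after it.

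**Figure D5:**
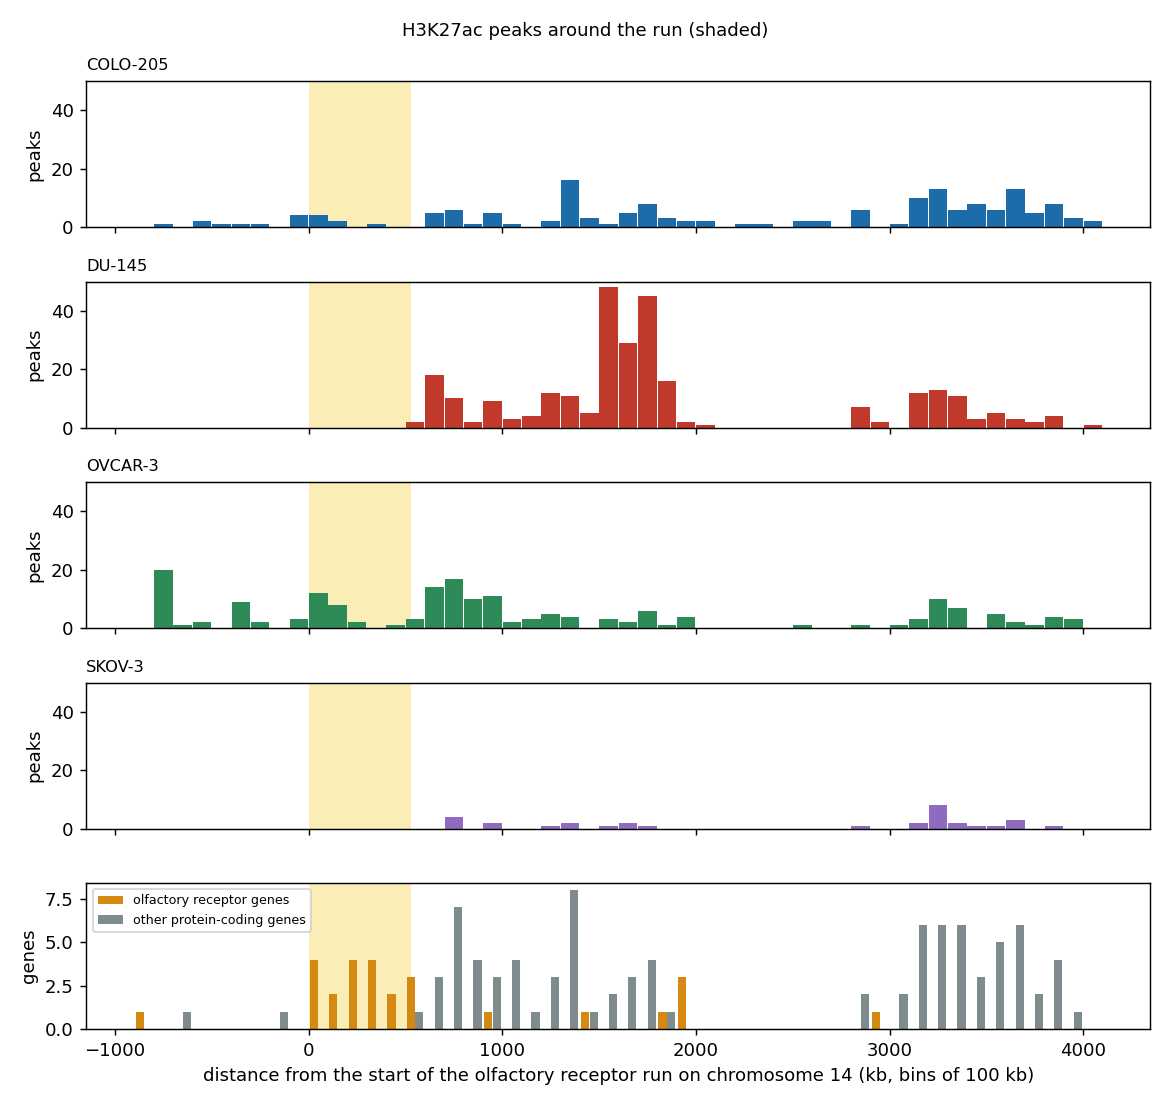
H3K27ac peaks per 100 kb (y axis, upper 4 panels, 1 per line) and gene starts per 100 kb (lowest panel; receptor genes orange, other protein-coding genes grey) against distance from the start of the chromosome 14 run (x axis, kb). The shaded run of 0.531 Mb holds 0 peaks in DU-145 and SKOV-3, 7 in COLO-205 and 23 in OVCAR-3, and DU-145 peaks begin beyond its end.

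The 8 receptor genes of chromosome 14 outside the run lie singly or in small groups among other genes. In DU-145 OR4E2 was 1501 bp and OR5AU1 1944 bp from the nearest peak, the shortest distances of any chromosome 14 receptor in this line. OR6S1 followed at 8834 bp, OR10G3 at 10989 bp, OR4E1 at 11139 bp, OR10G2 at 17137 bp and OR6J1 at 29552 bp. OR11H12, which lies before the run, was 1389981 bp from a peak. Their median was 11.1 kb in DU-145, 17.2 kb in COLO-205, 52.6 kb in OVCAR-3 and 96.3 kb in SKOV-3. By median these isolated genes were thus nearer to peaks than the 19 genes of the run in DU-145, COLO-205 and SKOV-3. The run medians were 299.5 kb in DU-145, 53.8 kb in COLO-205 and 413 kb in SKOV-3. In OVCAR-3 the order was the opposite, with 21.9 kb in the run.

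The rest of the family had a peak at few of its starts too, though at more of them in COLO-205. Of the 201 receptor genes on other chromosomes, 12 had a peak in COLO-205 (5.97%, exact 95% interval 3.12% to 10.2%), 1 in OVCAR-3 (0.498%), 4 in DU-145 (1.99%) and 0 in SKOV-3, where 0 of 201 genes allows up to 1.49% if counted as 3 genes, or 1.82% by the exact interval. In COLO-205 the interval for these genes began above the interval of the members of both chromosomes, which ended at 2.78% (1 of 198). The 11 runs on other chromosomes, with 124 genes over 3.54 Mb, held 4 peaks in DU-145, 8 in OVCAR-3, 30 in COLO-205 and 0 in SKOV-3, or 1.13, 2.26 and 8.49 per Mb in the first 3. In OVCAR-3 the runs of chromosome 9 came next to the 43.3 per Mb of chromosome 14, with 9.92 per Mb.

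The beta globin genes, which belong to red blood cells, and genes of olfactory signalling were counted beside the receptors. The 5 beta globin genes, which lie within the chromosome 11 array, had no peak at a start in any line. Of 19 genes of olfactory signalling and receptor regulation, 9 had a peak in DU-145, 12 in OVCAR-3, 10 in COLO-205 and 4 in SKOV-3, while over all protein-coding genes the shares were 59.8%, 60.4%, 51.1% and 31.5%. Those with a peak in all 4 lines were LDB1, the partner of LHX2, KDM1A, a histone demethylase, and ATF5, a stress response factor, each of which is used in many tissues. Of 7 markers of olfactory neurons, CNGB1, a cyclic nucleotide-gated channel subunit, had a peak in COLO-205, DU-145 and OVCAR-3, and OMP, the olfactory marker protein, in OVCAR-3. The other 5 had none in any line.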

How the data were processed

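Cells of 4 lines were profiled by ChIP-seq for H3K27ac, 1 library per line. The authors aligned reads to hg19 using Bowtie2 2.1.0, and MACS2 2.1.0.20150603 called narrow peaks per library at q below 0.001. The methods describe merging of peaks under 350 bp apart, but the deposited lists hold from 2070 to 16181 closer neighbours per line, so the peaks were used as deposited. For each peak the deposited score and the fold over local background were written by the authors' peak caller, as were −log10 p and −log10 q. None of these values is scaled between libraries. The methods mention libraries from input DNA, but which control entered the calling is not given in the sources used here; read depth was not used here, and the precision of shares was set by the number of genes or peaks.

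The pileup at each summit was solved from fold and −log10 p, with a tolerance of 0.001, and came out for 99.92% to 100% of peaks. Genes, starts and exons came from GENCODE 44 lifted to GRCh37, and sequences from the GRCh37 genome. A gene was positive where at least 1 base of a peak lay within 1 kb of a transcript start. Densities are peaks per Mb of known sequence. Shares have exact Clopper-Pearson 95% intervals, and a count of 0 was read as up to 3. No test between lines was possible. Counting was tested on simulated data. Scripts ran in Python 3.11.15 with pandas 2.3.3, scipy 1.17.1, numpy 2.4.6 and matplotlib 3.10.9.

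The members and lists were chosen with earlier results of these data known. Named genes were all members with a peak at a start in any line, and named peaks the 3 with the highest −log10 q in the clusters per line and chromosome; genes near the chromosome 14 run, single genes of the run, the runs themselves and the CpG limit were chosen after the values were seen. Alternatives were higher q thresholds, merging, equal numbers of peaks, other windows and cluster rules, and 1 letter in the symbol. Some marker genes and sequences are not reported here.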

Additional observations from a re-analysis of the deposited data

How the results depend on the processing

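Of 160 recomputed values, 87 stayed within 1.5 times and 73 did not, 8 of which only change the unit from peaks per Mb to a share of bases. No paired analysis was possible because each line gave 1 library, which allows no test; leaving out a replicate was likewise not possible. The 187 members with exactly 1 letter in the symbol, a −log10 q of at least 5 and a summit inside the window moved no value by over 1.5 times.

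With a −log10 q of at least 10, receptor genes with a peak fell to 0 in DU-145 on chromosome 11 and to 0 on either chromosome in the other lines. Cluster densities per Mb were then 2.0 and 7.49 (chromosomes 11 and 14) in COLO-205, 4.62 and 26.0 in DU-145, 1.25 and 1.87 in SKOV-3 and 17.7 on chromosome 14 of OVCAR-3, and the ratios of chromosome 14 to 11 were 3.75, 5.62 and 2.83 in COLO-205, DU-145 and OVCAR-3. With the same 14001 peaks in every library, the counts of genes were 0 in DU-145 on chromosome 11, and 2 and 0 in the other lines. Densities were 0.998 and 2.68 in COLO-205, 2.37 and 11.5 in DU-145 and 2.37 and 4.28 in OVCAR-3, with ratios of 4.85 in DU-145 and 1.81 in OVCAR-3. Merging gave 1.5 per Mb on chromosome 11 of SKOV-3.

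With 500 bp either side of a start, the genes with a peak were 0 in DU-145 on chromosome 11, and 2 and 0 in the other lines on chromosomes 11 and 14. With 2 kb there were 2 in DU-145 on chromosome 14, and 8 and 3 in the other lines, and with 5 kb 2, 11 and 10. The other lines are summed over genes and lines, and main counts were 1 and 0 in DU-145 and 4 and 1 in the other lines.

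With cluster neighbours at most 500 kb apart, densities on chromosome 11 were 6.81 in COLO-205, 4.12 in DU-145 and 3.41 in OVCAR-3, and 123 on chromosome 14 of DU-145; ratios were 29.8 in DU-145, 17.0 in OVCAR-3, 3.83 in COLO-205 and 3.41 in SKOV-3. Over 5 kb from other gene starts, densities were 6.21 and 15.8 in COLO-205, 2.74 and 26.1 in DU-145, 2.89 on chromosome 11 of OVCAR-3 and 0.289 and 0 in SKOV-3, and the ratio was 11 in OVCAR-3 and 0 in SKOV-3, where the floor of 3 peaks allows up to 3.43, so its direction is not settled. In the runs, added after the data were seen, densities were 4.97 and 13.2 in COLO-205, 0.216 and 0 in DU-145, 0.648 on chromosome 11 of OVCAR-3 and 0.432 and 0 in SKOV-3; the ratio was 66.8 in OVCAR-3 and 0 in DU-145 and SKOV-3, where the floor allows up to 26.1 and 13.1, so no turn of direction is shown. The runs hold none of the other genes of the clusters. The peaks of the chromosome 14 run, 7 in COLO-205 and 23 in OVCAR-3, fell to 2 and 3 where −log10 q had to reach 10, and to 0 and 0 with the same number per library, also added after the data were seen. As the share of bases under peaks, the clusters had 0.342% and 0.788% in COLO-205, 0.358% and 2.9% in DU-145, 0.39% and 1.35% in OVCAR-3 and 0.0974% and 0.117% in SKOV-3. The ratios by this measure were 8.1 in DU-145, 3.47 in OVCAR-3, 2.31 in COLO-205 and 1.2 in SKOV-3.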
